A study of Mus musculus with 13 samples.

Results

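Border macrophage markers were examined in RNA from mouse microglia, as the 8 genes Mrc1, Pf4, Lyve1, Cd163, F13a1, Cbr2, Folr2 and Stab1. The genes were taken by symbol from a table of 19737 genes, with no threshold on their values, and all 8 were found. Their levels were compared across 13 libraries of ribosomal RNA-depleted, stranded total RNA, sequenced on an Illumina NovaSeq instrument. The first group was wild type mice given AAV PHP.eB-EGFP, a viral vector built on adeno-associated virus that carries a fluorescent protein (n = 3). The second was 5xFAD mice given the same AAV PHP.eB-EGFP (n = 2). The third was 5xFAD mice given AAV PHP.eB-circPOLR2A, which carries a circular RNA (n = 4). The labels number the circPOLR2A construct differently in each of these 4 libraries, and the libraries were grouped by their shared title. The fourth was 5xFAD mice with PKR KO, a knockout of the kinase that senses double-stranded RNA, for which the labels name no virus (n = 4). The 5xFAD mouse is a model of Alzheimer's disease that carries transgenes under the neuronal Thy1 promoter. Age, sex, the isolation method and the cell types that lack PKR are not given in the sources used here. Nor do the labels say whether each library came from its own animal, so the p-values below measure only the spread between libraries.

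Border macrophages are the resident macrophages of the brain's edges. They lie in the meninges, in the perivascular spaces around vessels and in the choroid plexus, and they take up material from blood and cerebrospinal fluid. Microglia lie in the parenchyma. Both are macrophages that depend on the receptor Csf1r. A preparation of microglia can carry border macrophages along with it. The question put to the data was whether the markers of border macrophages stood at different levels in wild type and 5xFAD libraries.

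The 8 genes lie on 7 chromosomes of GRCm38, with positions from GENCODE M21. Folr2 (chr7:101839988-101857194) and Lyve1 (chr7:110850607-110863239) share chromosome 7. Mrc1 lies at chr2:14229392-14332057, Pf4 at chr5:90772435-90773383 and Cd163 at chr6:124304656-124330527. Cbr2 lies at chr11:120729489-120732114, F13a1 at chr13:36867178-37050244 and Stab1 at chr14:31139013-31168641. The values cover whole genes and do not separate exons, introns or UTRs. Exons of Stab1, Folr2 and F13a1 overlap exons of a gene on the other strand (Nt5dc2, Gm10602 and Gm30489), and whether counting kept the strands apart is not given in the sources used here.

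Promoters of 3 members are shown because these genes set the extremes of the results below: Stab1 was the most abundant member, Pf4 the least precisely measured of those that fell, and Folr2 the member that did not pass the test. Each run holds the 250 bases before the start in RefSeq (GRCm38.p6), 5′ to 3′ on the gene's own strand, which is plus for Pf4 (chr5:90772185-90772434) and minus for Stab1 (chr14:31168642-31168891) and Folr2 (chr7:101857191-101857440). Capitals mark 2 motifs of 6 bases. The first is GGAAGT, the core bound by ETS factors, the family of the macrophage factor PU.1, which reads ACTTCC on the other strand. The second is TGCTGA, the half-site of MAF factors, which reads TCAGCA on the other strand.
Pf4: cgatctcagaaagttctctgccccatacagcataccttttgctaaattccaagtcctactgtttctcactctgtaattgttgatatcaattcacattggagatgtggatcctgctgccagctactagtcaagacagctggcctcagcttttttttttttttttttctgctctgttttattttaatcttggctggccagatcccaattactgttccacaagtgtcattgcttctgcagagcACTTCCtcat
Stab1: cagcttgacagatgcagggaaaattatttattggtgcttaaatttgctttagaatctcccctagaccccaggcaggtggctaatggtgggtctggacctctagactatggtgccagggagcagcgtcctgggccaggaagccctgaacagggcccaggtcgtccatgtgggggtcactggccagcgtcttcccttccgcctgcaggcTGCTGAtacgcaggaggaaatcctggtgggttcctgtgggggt
Folr2: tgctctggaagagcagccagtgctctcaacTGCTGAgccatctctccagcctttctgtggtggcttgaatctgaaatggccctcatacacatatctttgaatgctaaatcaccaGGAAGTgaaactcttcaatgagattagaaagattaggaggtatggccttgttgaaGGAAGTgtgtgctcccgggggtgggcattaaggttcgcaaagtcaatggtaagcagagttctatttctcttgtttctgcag
The Pf4 window held 1 ETS core, the Stab1 window 1 MAF half-site, and the Folr2 window 2 ETS cores and 1 MAF half-site. RefSeq promoters matched 7 of the 8 members by symbol. Lyve1 had no entry. An ETS core was present in 3 of the 7, against 19.7% of 32851 promoters of the same length, and a MAF half-site in 2 of the 7, against 16.1%. These matches describe the letters of the windows only.

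The libraries held 45.2 to 70.0 M fragments (M, mega), recovered from the steps between low values. The 4 PKR KO libraries held 57.7, 70.0, 68.6 and 61.3 M, and all others at most 54.9 M. Microglial markers were abundant in every group. Csf1r, the receptor for colony stimulating factor, had 627 ± 155 FPKM (SD, n = 3) in wild type and group means of 531 to 613 FPKM in 5xFAD. Tmem119, a microglial membrane protein, had 398 ± 86.2 FPKM (SD, n = 3) in wild type against 186 ± 27.3 (n = 2), 209 ± 52.7 (n = 4) and 232 ± 53.2 (n = 4) FPKM in the EGFP, circRNA and PKR KO groups of 5xFAD. Eif2ak2, which encodes PKR, had 3.86 ± 0.639 FPKM (SD, n = 4) in the PKR KO group, below every other 5xFAD library but overlapping wild type at 4.85 ± 0.613 FPKM (n = 3). The PKR KO libraries are also the only ones with library names in the labels, so whatever that naming and their depth reflect and the knockout cannot be told apart.

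Of the 8 markers, 7 were lower in 5xFAD than in wild type libraries, and this held in each of the 3 5xFAD groups. For these 7 genes the wild type mean was 2.11 to 3.12 times the mean of a 5xFAD group, and every 5xFAD library lay below every wild type library. Folr2 was the exception, with a ratio of 1.26 to 1.46 and overlapping libraries. In bulk RNA, fewer border macrophages, less of these RNAs in each of them and less of these RNAs in other cells, such as microglia, cannot be told apart.

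**Figure D1:**
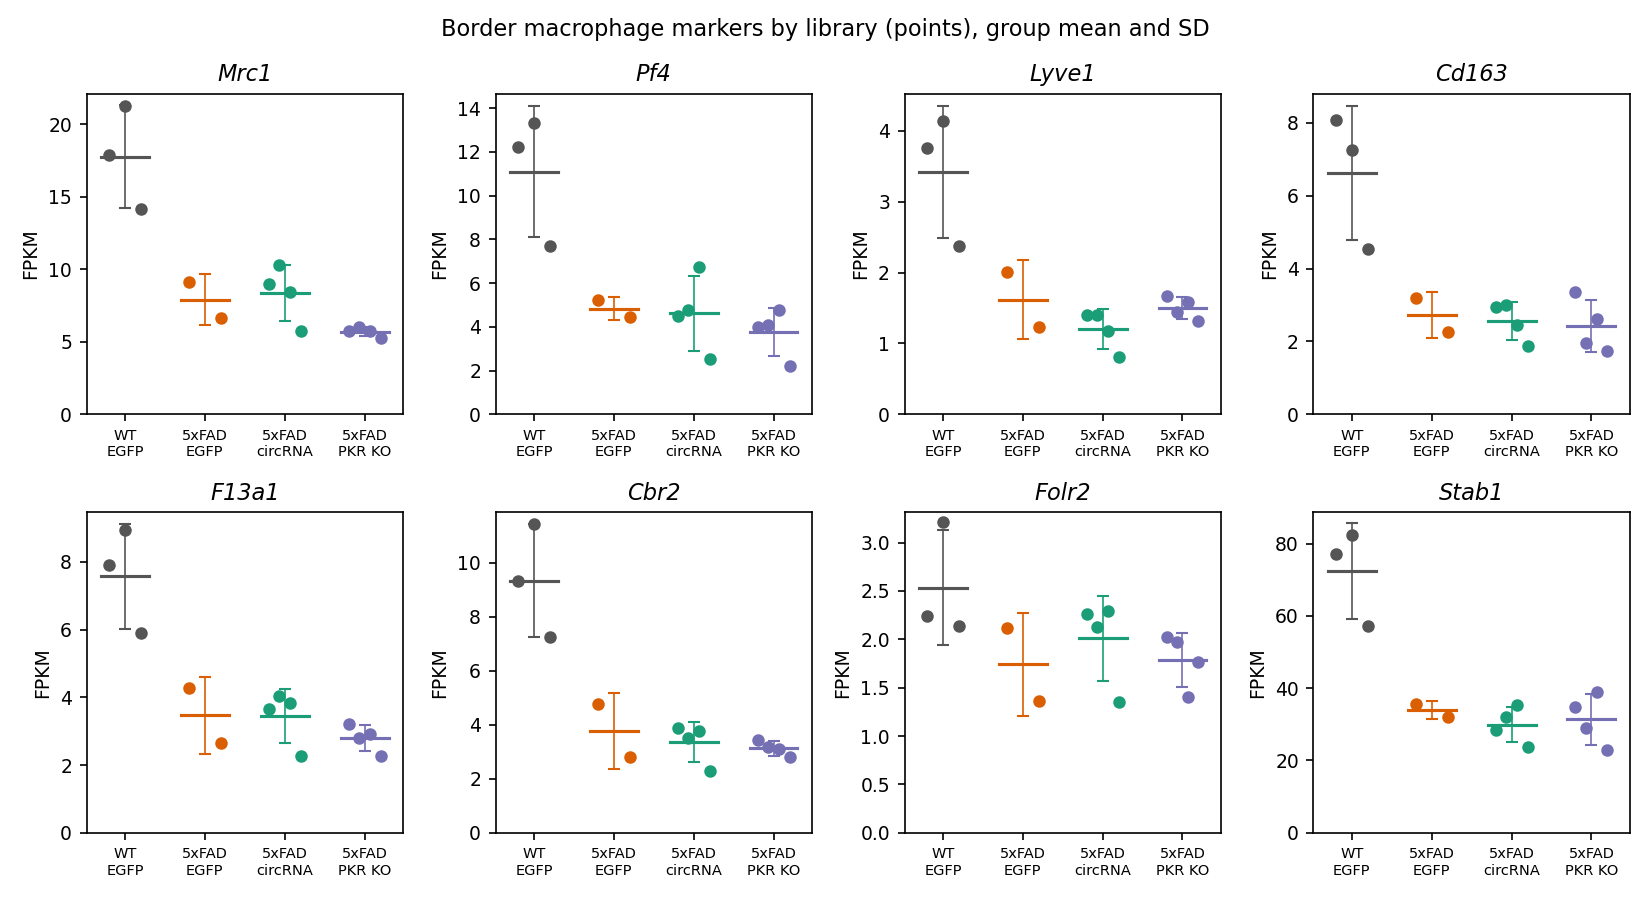
Level in FPKM (y axes, each starting at 0) of the 8 markers in the 13 libraries, 1 point per library, with the group mean as a horizontal line and the SD as an error bar (n = 3, 2, 4 and 4 from left to right). In 7 panels the wild type points lie above all 10 points of 5xFAD, and in the Folr2 panel they overlap.

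Most of the markers are receptors that bind and take up ligands. Stab1 encodes stabilin, a scavenger receptor, and had the highest level of the 8. Its values were 77.2, 82.5 and 57.3 FPKM in wild type, 35.6 and 32.1 with EGFP in 5xFAD, 28.5, 32.0, 35.3 and 23.8 with circRNA, and 34.7, 29.0, 39.0 and 22.9 with PKR KO. The lowest wild type library of Stab1 was therefore above the highest 5xFAD library, a PKR KO library at 39.0 FPKM. Between the group means, Stab1 fell by 1.06 on the log2(FPKM + 1) scale with EGFP (SE 0.22, limma adjusted p = 0.00782), by 1.24 with circRNA (SE 0.19, adjusted p = 3.93e-04) and by 1.19 with PKR KO (SE 0.19, adjusted p = 4.24e-04).

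Mrc1 is the mannose receptor, a lectin that takes up glycoproteins and a widely used marker of border macrophages. It stood at 17.8, 21.3 and 14.1 FPKM in wild type, 9.14 and 6.64 with EGFP, 8.96, 10.3, 8.41 and 5.72 with circRNA, and 5.72, 6.02, 5.76 and 5.27 with PKR KO. The groups of wild type and 5xFAD did not overlap, and the 4 PKR KO libraries were close together at 5.69 ± 0.311 FPKM (SD, n = 4). Mrc1 fell by 1.07 on the log2(FPKM + 1) scale with EGFP (SE 0.20, limma adjusted p = 0.00436), by 1.01 with circRNA (SE 0.17, adjusted p = 9.30e-04) and by 1.47 with PKR KO (SE 0.17, adjusted p = 4.36e-05).

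Cd163 is the receptor for complexes of haptoglobin and haemoglobin. Its levels were 8.08, 7.25 and 4.55 FPKM in wild type, 3.18 and 2.27 with EGFP, 2.94, 3.01, 2.44 and 1.89 with circRNA, and 3.35, 1.97, 2.61 and 1.74 with PKR KO. Every 5xFAD library was below the third wild type library, the lowest of its group. The change in log2(FPKM + 1) was -1.01 (SE 0.23, limma adjusted p = 0.0129), -1.08 (SE 0.20, adjusted p = 0.00157) and -1.15 (SE 0.20, adjusted p = 7.76e-04) in the same order of groups.

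Lyve1, a receptor for hyaluronan that is shared with lymphatic endothelium, was the lowest member but for Folr2 in wild type. It had 3.76, 4.14 and 2.37 FPKM in wild type, 2.01 and 1.23 with EGFP, 1.41, 1.40, 1.17 and 0.811 with circRNA, and 1.67, 1.44, 1.59 and 1.32 with PKR KO. The gap between the lowest wild type library and the highest 5xFAD library was narrow for Lyve1, 2.37 against 2.01 FPKM. The change in log2(FPKM + 1), a scale that understates changes near 1 FPKM, was -0.75 with EGFP (SE 0.18, limma adjusted p = 0.0172, held under 10 of 16 alternatives), -0.99 with circRNA (SE 0.15, adjusted p = 5.01e-04) and -0.80 with PKR KO (SE 0.15, adjusted p = 0.00173). Of the genes that define lymphatic endothelium, Ccl21a and Mmrn1 were at 0 in all wild type libraries and at no more than 0.0430 and 0.0118 FPKM in 5xFAD. Prox1, a transcription factor of lymphatic endothelium and of some neural cells, was at 1.84 to 3.38 FPKM over all libraries, and Flt4, a receptor of lymphatic growth factors, at 0.670 to 1.79 FPKM in wild type and 0.230 to 0.795 FPKM in 5xFAD. Of 2 lymphatic genes tested, Pdpn was called lower in the average of 5xFAD groups and Prox1 did not pass. The part of lymphatic endothelium in the difference of Lyve1 was not tested. The list summed to 4.38 to 8.23 FPKM in wild type and 3.34 to 6.15 FPKM in 5xFAD.

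Folr2 encodes a folate receptor found on macrophages. Its values were 2.25, 3.22 and 2.14 FPKM in wild type, 2.12 and 1.37 with EGFP, 2.26, 2.13, 2.29 and 1.35 with circRNA, and 2.02, 1.97, 1.40 and 1.76 with PKR KO. Only the second wild type library stood above all 5xFAD libraries. The change of Folr2 in log2(FPKM + 1) was -0.37 with EGFP (95% interval -0.75 to 0.02, limma adjusted p = 0.214), -0.23 with circRNA (-0.55 to 0.09, adjusted p = 0.284) and -0.33 with PKR KO (-0.66 to -0.01, adjusted p = 0.0956). None passed the threshold of 0.05 as fitted, though each did with the libraries rescaled to the same sum of FPKM (-0.50, -0.44 and -0.50, with adjusted p = 0.0403, 0.0222 and 0.00975). That rescaling called 27.7%, 43.3% and 50.1% of all genes tested lower in the same comparisons, so the Folr2 calls are no result about Folr2. The intervals, which are from the fit as reported and not adjusted for multiple testing, reach no further down than -0.75.

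A further pair of markers are secreted or act in clotting. Pf4 is a chemokine best known from platelet granules that macrophages of the brain's borders also express. It had 12.2, 13.3 and 7.70 FPKM in wild type, 5.21 and 4.45 with EGFP, 4.48, 4.75, 6.72 and 2.54 with circRNA, and 3.99, 4.06, 4.77 and 2.22 with PKR KO. The highest 5xFAD library, the third circRNA library, came close to the lowest wild type library of Pf4. The change was -1.02 with EGFP (SE 0.31, limma adjusted p = 0.0460), -1.13 with circRNA (SE 0.26, adjusted p = 0.00712) and -1.34 with PKR KO (SE 0.26, adjusted p = 0.00180). The EGFP call of Pf4 held under 7 of 16 alternatives, with adjusted p-values up to 0.308, and was lost without the first or second wild type library or either EGFP library, with a pseudocount of 0.1 and with no filter. Pf4 rested on as few as 93 fragments in a library, a counting error of 10.4%. Among platelet genes, Ppbp, another platelet chemokine, was at no more than 0.283 FPKM and Gp1ba, an adhesion receptor, at no more than 0.0163 FPKM in any library. Of 4 platelet genes tested, Gp9 was called lower in the average of 5xFAD groups and Itgb3 higher. Gp9, a subunit of a platelet adhesion receptor, was at 3.76 to 6.50 FPKM in wild type and 1.07 to 2.89 FPKM in 5xFAD, so its groups did not overlap, as for Pf4. Itgb3, an integrin that other cells also express, was at 8.08 ± 1.26 FPKM (SD, n = 3) in wild type and at group means of 13.9 to 15.2 FPKM in 5xFAD. The part of platelets in the difference of Pf4 was not tested. The list summed to 14.7 to 18.0 FPKM in wild type and 18.0 to 21.9 FPKM in 5xFAD.

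F13a1 encodes the catalytic subunit of clotting factor XIII, which crosslinks fibrin. Its values were 7.92, 8.93 and 5.89 FPKM in wild type, 4.26 and 2.66 with EGFP, 3.67, 4.03, 3.82 and 2.26 with circRNA, and 3.22, 2.79, 2.93 and 2.28 with PKR KO. All 5xFAD libraries were at 4.26 FPKM or below and all wild type libraries at 5.89 or above. F13a1 fell by 0.95 in log2(FPKM + 1) with EGFP (SE 0.21, limma adjusted p = 0.0102), by 0.95 with circRNA (SE 0.18, adjusted p = 0.00174) and by 1.16 with PKR KO (SE 0.18, adjusted p = 3.28e-04).

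Cbr2 is a carbonyl reductase, an enzyme of the cell's interior. It stood at 9.32, 11.4 and 7.23 FPKM in wild type, 4.78 and 2.79 with EGFP, 3.88, 3.49, 3.75 and 2.29 with circRNA, and 3.42, 3.17, 3.10 and 2.79 with PKR KO. The ranges were well separated, with 7.23 FPKM the lowest wild type value and 4.78 the highest in 5xFAD. Cbr2 fell by 1.12 in log2(FPKM + 1) with EGFP (SE 0.21, limma adjusted p = 0.00402), by 1.24 with circRNA (SE 0.17, adjusted p = 2.47e-04) and by 1.31 with PKR KO (SE 0.17, adjusted p = 1.35e-04).

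**Figure D2:**
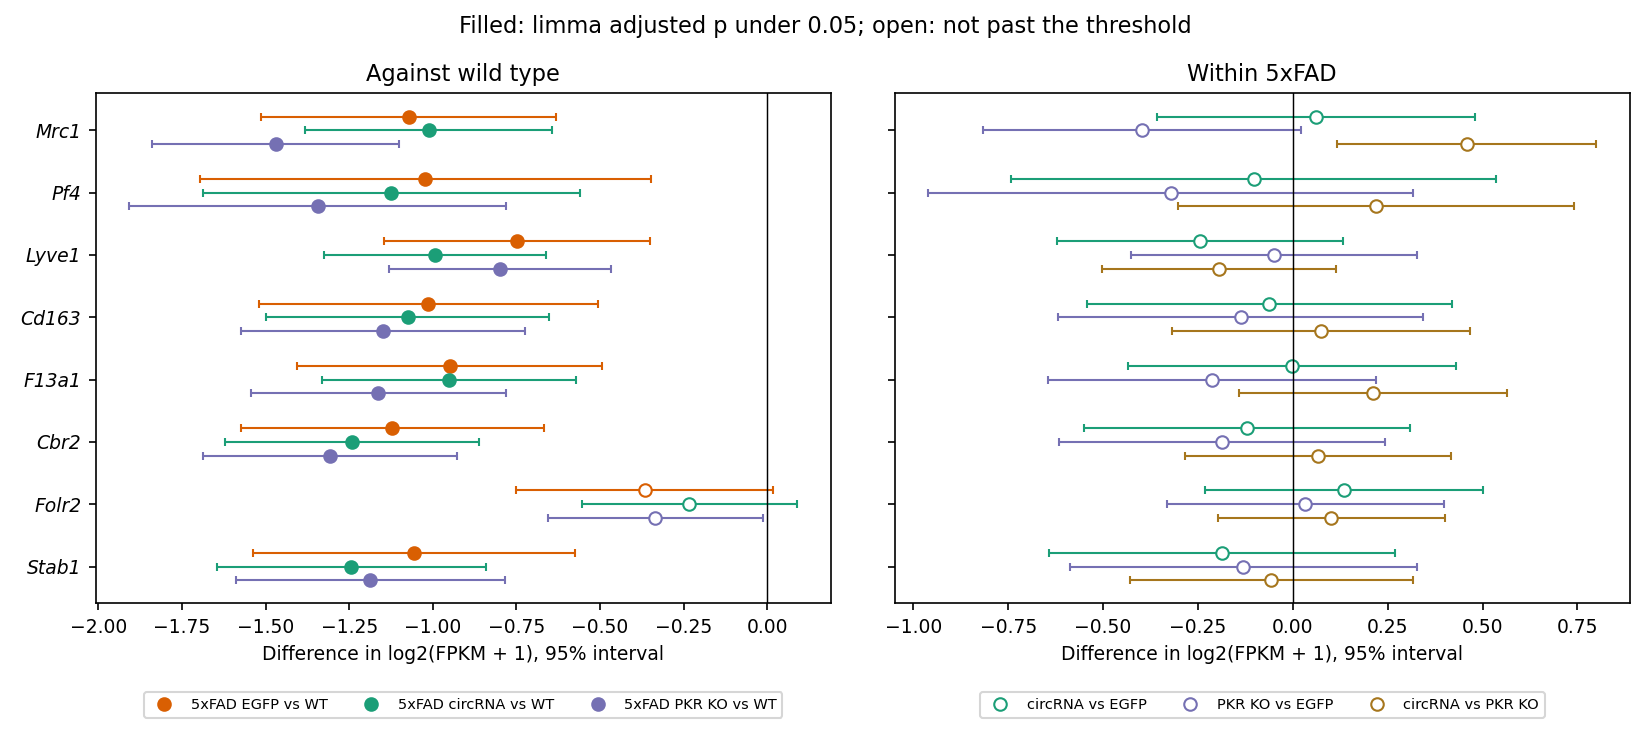
Difference in log2(FPKM + 1) between groups (x axes) for each marker (y axis), with unadjusted 95% intervals from limma, for 5xFAD groups against wild type on the left and between 5xFAD groups on the right. Filled points passed an adjusted p of 0.05: on the left 7 of 8 markers in each comparison, with Folr2 open, and on the right none.

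In all, 7 of the 8 markers were called lower in each comparison with wild type, where 6.35% of the 10817 genes tested were called lower with EGFP, 8.05% with circRNA and 19.4% with PKR KO. The median change of the 8 was -1.02, -1.04 and -1.18 in log2(FPKM + 1), beside -0.03, 0.02 and -0.05 over all genes tested. These comparisons share the 3 wild type libraries. With the 3 5xFAD groups averaged with equal weight, 7 of 8 were again called lower, against 13.9% of genes tested. Changes in that average ran from -0.85 for Lyve1 (SE 0.13, limma adjusted p = 4.70e-04) to -1.22 for Cbr2 (SE 0.15, adjusted p = 7.62e-05), with Folr2 at -0.31 (SE 0.13, adjusted p = 0.0882). Complete separation, with all 10 5xFAD libraries below all 3 wild type libraries, was found for the same 7 markers and for 632 genes tested (5.84%). The EGFP comparison, the one with the vector held the same, was the least stable. Without the second 5xFAD EGFP library, which leaves 1 in its group, the changes of Cbr2 and Pf4 were -0.82 and -0.93. When wild type and 5xFAD EGFP libraries were fitted alone, 2 of the 8 were called by limma. The changes of Cbr2 and Pf4 were then -1.12 and -1.02, the same as with all 13 libraries. With those groups alone, 1.14% of genes tested were called lower. Rescaling the libraries to the same sum of FPKM also brought Folr2 past the threshold in the average (-0.48, adjusted p = 0.00594). It moved the median of all genes to -0.20 and called 51.0% of genes tested lower and 10.2% higher, against 13.9% and 16.7% as fitted.

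Between the 5xFAD groups, no marker was called different. The circRNA and EGFP groups differed from each other by -0.25 for Lyve1 (95% interval -0.62 to 0.13, limma adjusted p = 0.739) to 0.13 for Folr2 (-0.23 to 0.50, adjusted p = 0.796), with the other markers in between. The PKR KO and EGFP groups differed by -0.40 for Mrc1 (-0.82 to 0.02, adjusted p = 0.405) to 0.03 for Folr2 (-0.33 to 0.40, adjusted p = 0.947). In these 2 comparisons no marker reached an unadjusted p of 0.05, and 0 and 9 of the genes tested (0% and 0.0832%) were called in either direction. The absence of a call does not show that the groups were alike, since the intervals include differences as large as the bounds given.

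Mrc1 was the marker with the largest difference between circRNA and PKR KO. Its circRNA mean was 8.34 ± 1.92 FPKM (SD, n = 4) and its PKR KO mean 5.69 ± 0.311 FPKM (n = 4), a difference of 0.46 in log2(FPKM + 1) (95% interval 0.12 to 0.80, limma adjusted p = 0.0966). The fourth circRNA library, at 5.72 FPKM, lay within the PKR KO range, and the other circRNA libraries were above all of PKR KO. Lyve1 differed by -0.20 (-0.50 to 0.11, adjusted p = 0.412) and had the lowest of the 8 differences. In this comparison 6.19% of genes tested were called in either direction, and 1 of the 8 markers, Mrc1, had an unadjusted p under 0.05. Without the fourth circRNA library Mrc1 was called higher with circRNA (0.61, limma adjusted p = 0.0323). That fit called 506 of the genes tested in either direction, against 670 with all libraries.

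The markers rose and fell together between libraries of the same group. The third wild type library was the lowest of its group for 8 of 8 markers, and the second was the highest for 7. In 5xFAD, the first EGFP library was above the second for 8 of 8, the fourth circRNA library was the lowest for 8 of 8, and the fourth PKR KO library was the lowest for 7 of 8. After subtraction of each group's mean, Pearson's r between pairs of markers over the 13 libraries ran from 0.399 (Folr2 with Stab1) to 0.956 (F13a1 with Cbr2), with a median of 0.786 over the 28 pairs and 27 pairs above 0.5. The points of each such correlation share a library, its depth and its cell makeup.

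**Figure D3:**
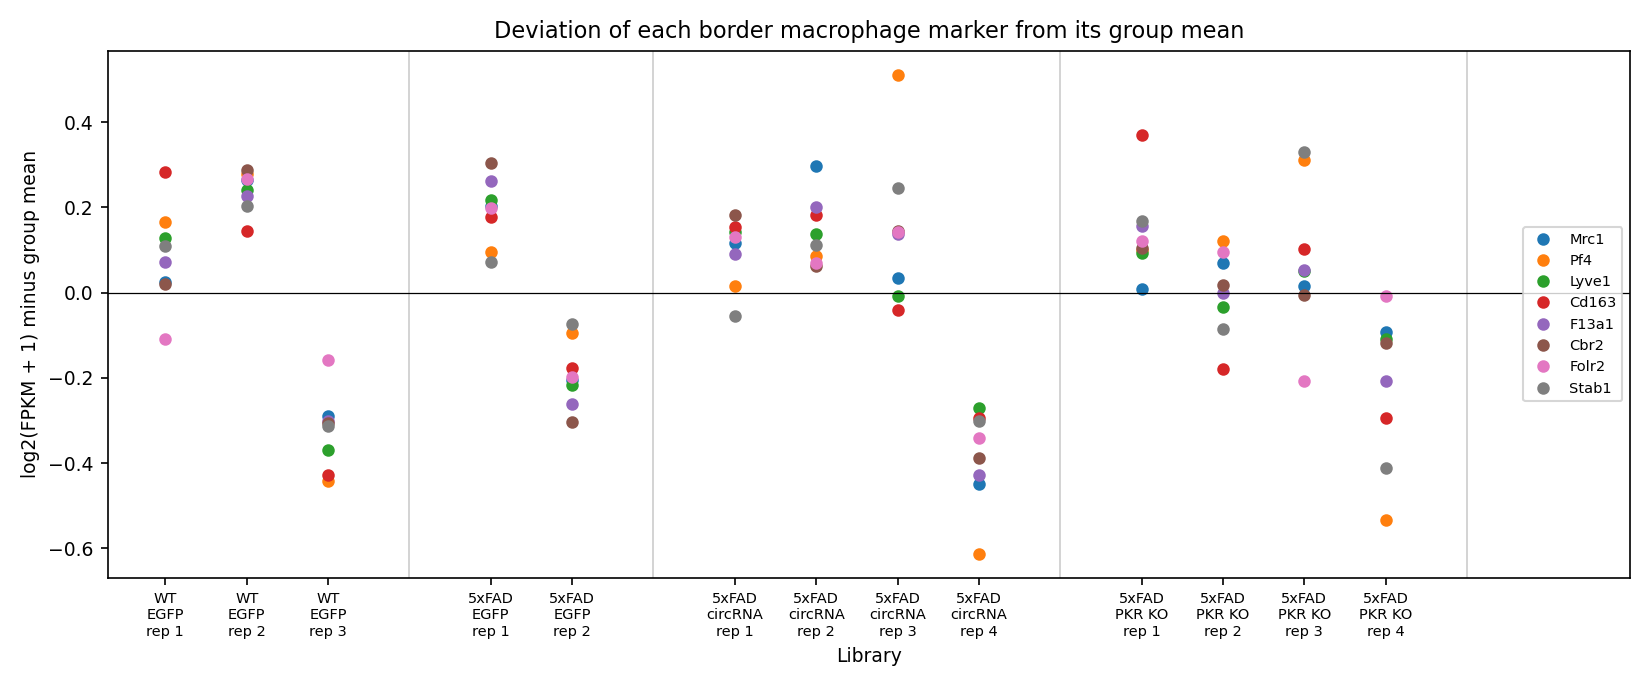
Deviation of each marker from its group mean in log2(FPKM + 1) (y axis) in each of the 13 libraries (x axis), with 1 colour per marker. The 8 points of a library fall mostly on the same side of 0, and all 8 are at the bottom of their group in the third wild type and the fourth circRNA library.

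Genes that followed the markers within groups were ranked by Pearson's r with the mean standardised level of the 8, again after subtraction of group means, over 13 libraries and 10809 other genes tested. The highest was Cd209a, a lectin of macrophages and dendritic cells (r = 0.964, and 0.932 without the 2 libraries farthest from the median). It was followed by Ccnb1ip1 (0.955), a ubiquitin ligase of meiosis, Cd209f (0.939), another lectin of the Cd209 cluster, Sdhd (0.938), a subunit of succinate dehydrogenase, and Cd81 (0.937), a tetraspanin. The lowest were Spaca6 (-0.923), Wdpcp (-0.922) and Cep83 (-0.917), the latter pair being genes of the primary cilium. Cd209a and Cd209f were also lower in 5xFAD than in wild type, while the changes of Ccnb1ip1, Sdhd and Cd81 in the average of 5xFAD groups were -0.06, 0.06 and 0.11 and did not pass the test. Ccnb1ip1 shares exon sequence on the same strand with Rpph1, the RNA of RNase P, in GENCODE M21, so the gene behind its reads is uncertain. The 2 libraries left out were the fourth circRNA library and the third wild type library.

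Another 20 genes linked to border macrophages were listed apart from the 8. Of the 13 that passed the filter on low values, 9 were called lower in the average of the 5xFAD groups, 1 higher, and 3 did not pass, beside 13.9% of all genes tested called lower and 16.7% higher. Mgl2 and Clec10a passed the filter only through wild type, with means under 1 FPKM in every 5xFAD group, so their place among the 9 is a description. The other 11 held 7 called lower and 1 called higher, with a median change of -0.69. Among those called lower, the 6 with the smallest p were Mgl2, Igfbp4, Cd209a, Cd209f, Clec10a and Cp. Mgl2 and Clec10a are neighbouring genes for similar macrophage lectins of the galactose type, and since they are close copies, reads may be shared between them. Mgl2 had 2.38 ± 0.491 FPKM (SD, n = 3) in wild type and 0.578 ± 0.0417 (n = 2), 0.747 ± 0.308 (n = 4) and 0.430 ± 0.108 (n = 4) FPKM in the EGFP, circRNA and PKR KO groups, and its log2(FPKM + 1) differed by -1.09 in the average.

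Cd209a stood at 6.51 ± 2.19 FPKM in wild type (SD, n = 3) and at 2.28 ± 0.730 (n = 2), 1.98 ± 0.568 (n = 4) and 1.51 ± 0.478 (n = 4) FPKM in the same order of 5xFAD groups, a log2 change of -1.34 in the average (SE 0.20, limma adjusted p = 3.07e-04). Cd209f changed by -1.03 (SE 0.16, adjusted p = 4.52e-04), and Clec10a differed by -0.90. Igfbp4, a binding protein of insulin-like growth factors, changed by -0.83 (SE 0.12, adjusted p = 2.62e-04), and Cp, the copper oxidase ceruloplasmin, by -0.83 (SE 0.15, adjusted p = 0.00110). With the endothelial and mural level of each library as a covariate, a step described below, Cp changed by -0.37 and no longer passed (adjusted p = 0.259). Cp did not follow the 8 markers within groups (r = -0.15), whereas Cd209a, Cd209f and Igfbp4 did (r = 0.96, 0.94 and 0.82).

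Colec12, a collectin that acts as a scavenger receptor, went the other way. Its level was 1.30 ± 0.184 FPKM (SD, n = 3) in wild type against 1.57 ± 0.133 (n = 2), 1.79 ± 0.361 (n = 4) and 3.07 ± 0.803 (n = 4) FPKM in the EGFP, circRNA and PKR KO groups. It rose by 0.42 in the average (SE 0.12, limma adjusted p = 0.0236), where 16.7% of genes tested were called higher, and by 0.81 with PKR KO (adjusted p = 0.00103), and did not pass with EGFP or circRNA. Between circRNA and PKR KO it was also called lower with circRNA (-0.53, adjusted p = 0.0381). Colec12 was named after its values were seen. Siglec1, Ccl8 and Dab2 had changes of -0.36, -0.69 and -0.22 that did not pass. The 7 genes under the filter were Ms4a7, Cd209g, Ccl24, Cd38, Clec4n, Ccr1 and Timd4, with wild type values of 0.351 to 2.33 FPKM and 5xFAD values of 0.143 to 0.999 FPKM. In 6 of these 7, all but Ms4a7, every 5xFAD library was below every wild type library, as in 8.09% of the 7474 genes under the filter that had a value above 0 in some library. Without Mgl2 and Clec10a, the same held for 4 of the 11 genes tested, beside the 5.84% of all genes tested given above.

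**Figure D4:**
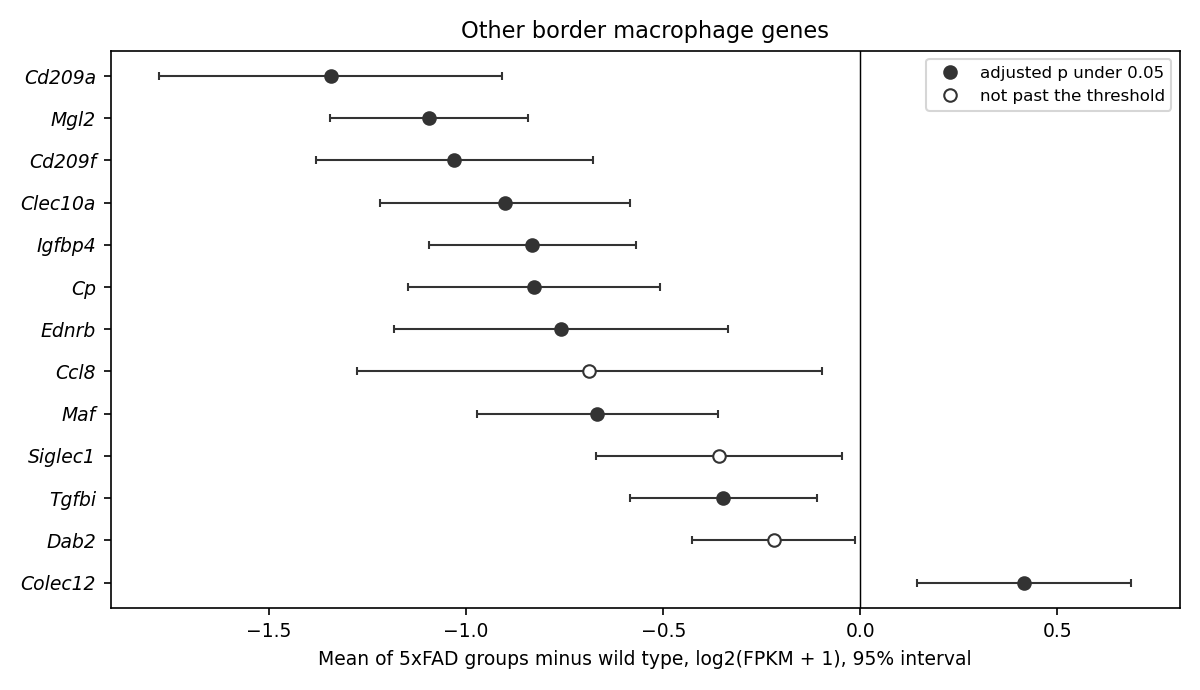
Mean of the 5xFAD groups minus wild type in log2(FPKM + 1) (x axis) for the 13 other border macrophage genes tested (y axis), with unadjusted 95% intervals. Filled points passed an adjusted p of 0.05: 9 lie below 0, Colec12 lies above it, and Siglec1, Ccl8 and Dab2 are open. Mgl2 and Clec10a passed the filter only through wild type.

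Markers of vessels were also lower in 5xFAD, in a comparison where 13.9% of all genes tested were called lower. Of 10 blood endothelial genes tested, 9 were called lower in the average of the 5xFAD groups, with a median change of -1.12. Of 8 mural cell genes, 7 were lower and 1, Cspg4, was higher (0.65, adjusted p = 0.0226 from limma), with a median of -1.25. Of 5 choroid plexus epithelial genes, 2 were lower and 3 did not pass, with a median of -1.12. By group, 0 were called lower with EGFP, 0 with circRNA and 4 with PKR KO, with medians of -1.11, -0.74 and -1.46. In those comparisons 6.35%, 8.05% and 19.4% of genes tested were called lower. Of 14 microglial genes 3 were lower and none higher, with a median of -0.28, and none of 5 neuronal or 6 oligodendrocyte genes passed. For neurons and oligodendrocytes the medians were 0.11 and -0.04, and the smallest adjusted p-values from limma were 0.610 and 0.361, with no gene of either list at an unadjusted p under 0.05. These averages join groups that differ in sign. With EGFP, circRNA and PKR KO the medians were 0.54, -0.10 and -0.13 for neurons and 0.69, 0.08 and -0.95 for oligodendrocytes, with no gene called in any group. Of 6 astrocyte genes 1, the filament gene Gfap, was higher. None of 3 neutrophil genes or of the 1 lymphocyte gene tested passed or had an unadjusted p under 0.05. Of 9 lymphocyte genes read, 2 under the filter had every 5xFAD library above every wild type library. Cd3e was at no more than 0.0146 FPKM in wild type and at least 0.0232 FPKM in 5xFAD. For Nkg7 these bounds were 0.0459 and 0.0614 FPKM. The share of all genes separated in that direction was not computed. Of 8 neutrophil genes read, only Mmp9, under the filter, had every 5xFAD library below every wild type library.

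The summed level of the 8 markers was 101 to 152 FPKM in wild type and 40.3 to 66.3 FPKM in 5xFAD. For the endothelial list the sums were 122 to 274 and 62.0 to 152 FPKM, for the mural list 68.2 to 152 and 27.8 to 66.1 FPKM, and for the choroid plexus list, almost all of it the thyroid hormone carrier Ttr, 1034 to 2701 and 207 to 2256 FPKM. Stab1 made up 50.8% to 63.8% of the sum of the 8. The border macrophage and mural sums thus separated wild type from 5xFAD, and the endothelial and choroid plexus sums overlapped. Within wild type, the third library was the lowest for the 8 markers (101 FPKM) and the highest for endothelium (274 FPKM) and mural cells (152 FPKM). The fourth circRNA library had the lowest sum of the 8 in its group (40.7 FPKM) and the highest choroid plexus sum in 5xFAD (2256 FPKM).

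**Figure D5:**
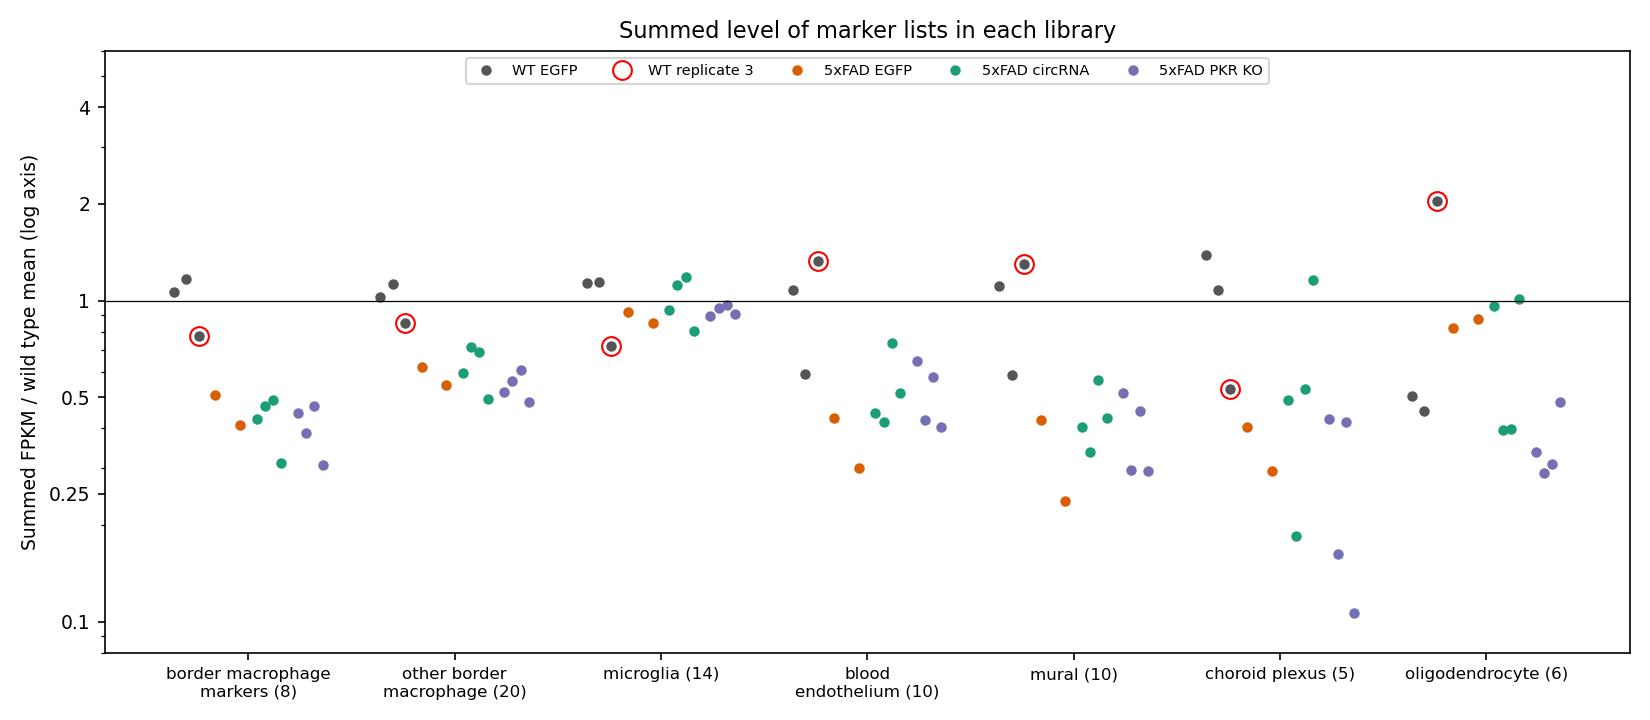
Summed FPKM of each marker list in each library divided by the wild type mean of that list (y axis, log scale), with list sizes in parentheses and 1 colour per group. A red ring marks the third wild type library, which is lowest of its group for border macrophage and microglial genes and highest for endothelial, mural and oligodendrocyte genes.

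The lists were also compared within groups. With group means subtracted, the mean standardised level of the 8 markers had a Pearson's r over 13 libraries of 0.86 with the other border macrophage genes (0.78 without the same 2 libraries) and 0.80 with microglial genes (0.52). The corresponding r was -0.23 with endothelial, -0.03 with mural and 0.05 with choroid plexus genes, and -0.69 with both neuronal and oligodendrocyte genes. Without those 2 libraries the values were 0.09, 0.29 and 0.32 for endothelial, mural and choroid plexus genes, and -0.33 and -0.40 for neuronal and oligodendrocyte genes, so much of the spread between the lists rests on them.

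The difference in the 8 markers was then measured with these levels taken into account, by steps chosen after the data were seen. The weight of a covariate in such a fit comes from differences within groups. There r with the markers was -0.23 for endothelial, -0.03 for mural and 0.05 for choroid plexus genes. Levels of these lists were also lower on average in 5xFAD, so the covariate fits cannot separate them from genotype. With the endothelial and mural level of each library as a covariate, 6 of the 8 were called lower in the average of 5xFAD groups, beside 2.14% of all genes tested. Mrc1 changed by -1.43 in log2(FPKM + 1) (limma adjusted p = 0.00308), and Pf4, at -1.14, no longer passed (adjusted p = 0.0875). With the choroid plexus level as a covariate, 7 of 8 were called lower, beside 4.59% of genes tested. In the EGFP comparison alone, these covariates left 1 and 3 of the 8 called, beside 0.351% and 1.42% of genes tested called lower, while the changes of the 7 markers other than Folr2 were -0.95 to -1.37 and -0.69 to -1.17, beside -0.75 to -1.12 without a covariate. Their SEs were 0.29 to 0.51 and 0.22 to 0.37, beside 0.18 to 0.31. Scaling each library to its microglial markers gave 7 of 8 in the average, where it called 3.85% of genes tested lower and 25.8% higher, with Mrc1 at -0.96 and Folr2 at -0.15, and moved the median of all genes to 0.16.

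The same was seen against Csf1r, a receptor shared by microglia and border macrophages. Mrc1 was at 2.48% to 3.16% of the Csf1r level in wild type and at 0.890% to 1.65% in 5xFAD libraries. Stab1 was at 10.7% to 12.8% of Csf1r in wild type and at 3.87% to 6.47% in 5xFAD. For 7 markers the wild type percentages were all above those of 5xFAD, with ratios of the means of 2.20 to 2.65. For Folr2 the ranges of 0.312% to 0.477% and 0.233% to 0.417% overlapped, with a ratio of 1.31. The share of all genes that separate on this scale was not computed, so the count of 7 has no background here.

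Genes of blood cells and fibroblasts were also read. In the monocyte list only Fn1, a matrix protein made by many cells, passed the filter. It was lower in the average (-0.87, limma adjusted p = 0.00653), while Ccr2 and Ly6c2, which define monocytes, were at no more than 0.844 and 0.697 FPKM. S100a4, a calcium-binding protein of monocytes and other cells, was at 0.492 to 0.634 FPKM in wild type and 0.0367 to 0.437 FPKM in 5xFAD, the only one of the 10 monocyte genes in which every 5xFAD library was below every wild type library. The monocyte list summed to 10.3 to 20.9 FPKM in wild type and 5.58 to 11.6 FPKM in 5xFAD. In the dendritic cell list only Cd209a passed, a gene also counted among the other border macrophage genes, and Xcr1 and Clec9a were at no more than 0.0399 and 0.149 FPKM. Zbtb46, a transcription factor of dendritic cells and endothelium, was at 0.844 to 1.41 FPKM in wild type and 0.495 to 0.740 FPKM in 5xFAD, and Flt3, a growth factor receptor, at 0.176 to 0.230 and 0.0324 to 0.168 FPKM, so neither overlapped. The dendritic cell list summed to 5.88 to 9.52 FPKM in wild type and 1.79 to 3.68 FPKM in 5xFAD. Of 9 fibroblast genes of the meninges and perivascular space, only Igf2 was tested and it was lower (-1.21, adjusted p = 0.0158). The summed fibroblast level was 9.77 to 17.2 FPKM in wild type and 2.46 to 9.89 FPKM in 5xFAD. In 5 of the 9 (Col1a2, Dcn, Lum, Pdgfra and Slc6a13), all under the filter, every 5xFAD library was below every wild type library. The same held for 8.09% of the 7474 genes under the filter that had a value above 0 in some library. That share also stands beside S100a4, Zbtb46 and Flt3, which were under the filter. The part of fibroblasts, dendritic cells and monocytes in the differences of the 8 markers was not tested.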

How the data were processed

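The authors deposited 1 table of FPKM values, 1 column per library and not pooled. FPKM divides a gene's fragments by its length and by the library's total, so a value is a share of the library and moves when other abundant genes move. Total RNA was extracted with TRIzol and depleted of ribosomal RNA, per the labels' protocols. Bowtie2 2.3.5, HISAT2 2.1.0, featureCounts 1.5.1 and the build mm10 are named in the submitters' processing notes, with no role. Whether counting used strand is not given in the sources used here.

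Depth was recovered from the steps between low FPKM values with GENCODE M21 exon lengths, with 91.2% to 92.9% of values below 0.3 FPKM whole within 0.05 of a fragment, against 10% by chance. It covers counting error only. At the lowest library, the counting error of the 8 markers was 0.896% for Stab1 to 10.4% for Pf4.

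Groups followed the titles. A linear model was fitted to log2(FPKM + 1) by limma 3.58.1 (R 4.3.3). It took the 10817 genes whose mean over the 13 libraries reached 1 FPKM, with 1 mean per group, 9 residual degrees of freedom and an intensity trend. P-values were adjusted by Benjamini-Hochberg over all genes within each of 7 comparisons, with a threshold of 0.05. All 8 markers passed the filter, with means above 1 FPKM in every group. The script was tested on simulated data. Markers, lists and tests were chosen with earlier results of these data known. The text names the 8 markers, the 6 other border macrophage genes with the smallest p in the average of 5xFAD groups, the 5 genes with the highest and the 3 with the lowest r to the markers, and, of other lists, the highest or defining genes. Alternatives were another pseudocount, no filter, other scalings, library weights, a replicate block, fits of the compared groups alone, each library left out, and, added after the data were seen, microglial scaling and covariates for vascular and choroid plexus levels.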

Additional observations from a re-analysis of the deposited data

Results flagged for a closer look

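Of 60 sets of 4 libraries examined, 4 held a library far from the others, where chance flags about 1 in 20. Mgl2 stood at 1.21 FPKM in the second circRNA library, with the nearest at 0.645 FPKM. Cd209a stood at 1.13 FPKM in the fourth circRNA library, with the nearest at 2.14 FPKM. The summed monocyte list was at 11.6 FPKM in the third circRNA library, with the nearest at 9.22 FPKM. The summed neutrophil list was at 27.2 FPKM in the fourth PKR KO library, with the nearest at 5.45 FPKM. The 8 border macrophage markers themselves held no such library.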

How the results depend on the processing

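In the average of the 5xFAD groups and in the circRNA and PKR KO groups, 7 of 8 markers stayed lower than wild type whichever library was left out. The EGFP comparison with wild type moved from 7 markers called to 2 when only those groups were fitted, to 1 with the endothelial and mural covariate, to 3 with the choroid plexus covariate, and to 0 to 7 with 1 library left out. The changes of the 7 markers other than Folr2 were -0.75 to -1.12 as reported and with only those groups, -0.95 to -1.37 and -0.69 to -1.17 with the covariates, and -0.53 to -0.98 without the second EGFP library. Pf4 also lost its EGFP call with a pseudocount of 0.1 (adjusted p = 0.0631) and no filter (0.0744), Lyve1 with quantile normalization (0.0506) and, with the first wild type library left out, both did. Same-sum rescaling added Folr2 in all 4 comparisons with wild type, and called 27.7% to 51.0% of all genes tested lower in them. The vascular covariate also ended the Pf4 call with circRNA (0.0677) and in the average (0.0875), and the choroid plexus covariate the Lyve1 call with PKR KO (0.0510), all by limma. With 1 EGFP library left, that library was assumed to vary like the other groups. Between circRNA and PKR KO, library weights called 1 marker (Mrc1). They called 3161 of the 10817 genes tested in either direction, against 670 as fitted, so that call is no result about Mrc1. Leaving out 1 library gave 0 to 1 marker, with 506 genes tested called without the fourth circRNA library. Folr2, which passed in no comparison within 5xFAD, changed sign between PKR KO and EGFP with the same-sum rescaling (-0.00239), with the choroid plexus covariate (-0.00164) and with 1 library left out (-0.17 to 0.23, with -0.00756 among them), and between circRNA and EGFP with 1 library left out (-0.0638 to 0.33). The cause was not tested.

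Replicate numbers were not taken to pair the libraries, since the labels do not say so and not every pair was correlated. Same-numbered libraries had correlations of their deviations of -0.42 to 0.69 between circRNA and wild type, -0.18 to 0.58 between PKR KO and wild type, 0.036 to 0.55 between PKR KO and circRNA, 0.27 to 0.38 between PKR KO and EGFP, -0.02 to 0.17 between circRNA and EGFP and -0.03 to 0.27 between EGFP and wild type. The mean was higher for same-numbered than for other pairs in 6 of 6 comparisons. With the replicate block, 7 markers were called in each comparison with wild type and 0 in each within 5xFAD, so the block changed no count. The exact test planned for markers under the filter had none to test, and the average of the 5xFAD groups has no fit of only the groups compared. Depth limited Pf4, Lyve1, Folr2 and Cbr2 most, with counting errors of 8.06% to 10.4% in their lowest library.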
